A study of Mus musculus with 9 samples.

Results

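Proteasome genes were taken as every gene whose symbol begins with Psm, a letter from a to g and a number, where a probe set of the array is annotated to that 1 symbol only. They came to 48 genes, measured by 85 probe sets, of 12393 genes in all. They were divided into 18 genes of the core particle (Psma and Psmb), 21 of the regulatory particle (Psmc and Psmd) and 9 for activators, an inhibitor and assembly factors (Psme, Psmf and Psmg). The symbols also take in 2 genes that are not subunits, Psmc3ip, a cofactor of meiotic recombination, and Psme3ip1, a protein that binds the Psme3 product. A probe set annotated to both Psme2 and Psme2b was left out by the rule.

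RNA came from whole mouse embryos at 9.5 days post coitum (dpc) and was hybridised to 9 Affymetrix arrays of 5 genotypes. Arrays labelled Notch1 null (Notch1tm1Con/tm1Con) numbered 2, and 1 array was labelled Notch1 het (Notch1tm1Con/+). Dll3 null (Dll3neo/neo) had 2 arrays, Dll3 het (Dll3neo/+) had 2, and wild type, with unmodified alleles at both loci, had 2. Notch1 encodes a receptor of the Notch pathway and Dll3 a ligand-like protein of the same pathway that somite segmentation needs. The tm1Con and neo alleles are germline alleles, so every cell of an embryo carries them. Only the first Notch1 null array names a strain, C57BL/6J. Whether a replicate was 1 embryo, a pool or another litter is not stated in the labels. P-values therefore reflect variation among these arrays alone, and part of it may be technical.

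The proteasome degrades proteins that carry ubiquitin chains. Its core is a stack of rings in which the alpha subunits form the outer gates and the beta subunits line an inner chamber, where a few of them cut peptide bonds. The regulatory particle caps the core: its ATPases unfold a substrate and thread it inward, while other subunits bind and remove ubiquitin. Subunits of the complex are often transcribed in step, and dedicated chaperones build the rings. The intracellular domain of an activated Notch receptor is itself a proteasome substrate.

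Levels are log2 ratios. The deposited table holds linear ratios, and for most probe sets the median of the 9 ratios is exactly 1, so 0 on the log2 scale is near the middle array of each gene. The absolute level is lost in this way. Detection of a transcript cannot be judged, genes cannot be ranked by level, and markers cannot show that the RNA came from whole embryo. Differences between groups were tested with limma over all 12393 genes, and a gene is called where its adjusted p is under 0.05.

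Replicate arrays correlated over the 48 genes at 0.776 in Notch1 null, 0.531 in Dll3 null, 0.689 in Dll3 het and 0.711 in wild type. The median spread within groups was 0.0871 for proteasome genes, against 0.109 over all genes. Notch1 itself stood at 0.47 and 0.78 in the arrays labelled Notch1 null, 0.10 in Notch1 het and -0.08 and 0.02 in wild type, a signal 1.58-fold higher in Notch1 null (log2 0.66 ± 0.13 SE, adjusted p = 0.0110). Dll3 stood at -0.31 and -0.10 in Dll3 null, 0.09 and -0.02 in Dll3 het and 0.13 and 0.00 in wild type, and did not pass the test (adjusted p = 0.476). Where these probes lie relative to the altered sequence is unknown here, and neither result can check the labels. Every direction given here goes by the label of the array.

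**Figure D1:**
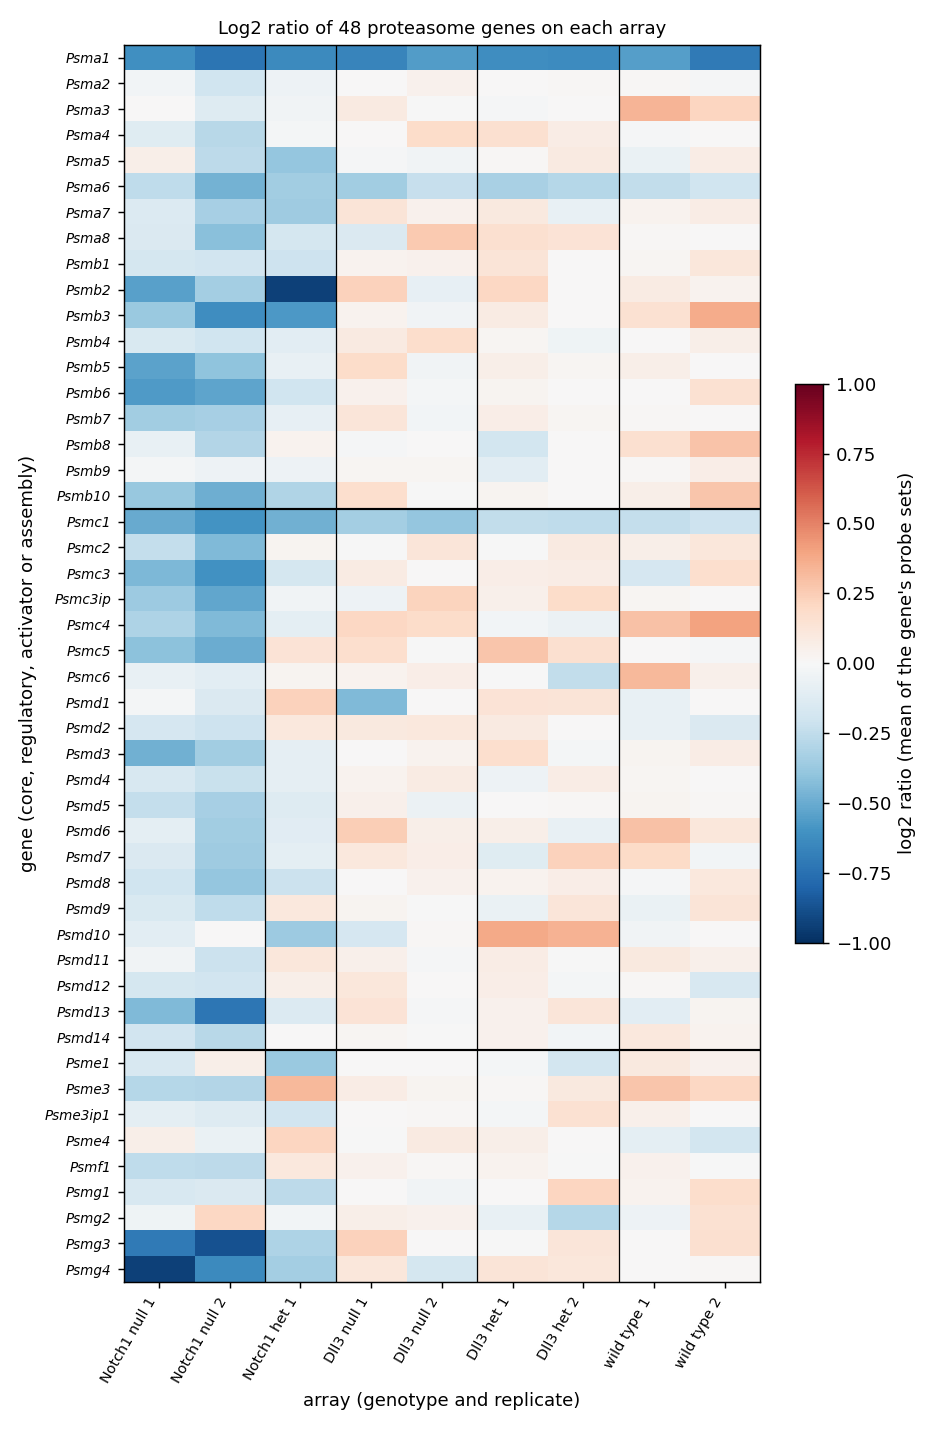
Log2 ratio of each of the 48 proteasome genes (rows, in the order core, regulatory, activator or assembly, parted by black lines) on each of the 9 arrays (columns, by genotype and replicate); blue is below 0 and red above 0. Blue fills most of the 2 Notch1 null columns, where 45 of 48 genes lie below 0 on each array, and part of the Notch1 het column, while the Dll3 and wild-type columns are mixed.

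The first comparison asked how proteasome transcripts differed in embryos labelled as homozygous for the Notch1 allele. Most measured lower and part of them passed the test. Of the 48 genes, 18 fell in Notch1 null against wild type, 0 rose and 30 did not pass the test. Over all genes tested, 8.35% were called lower, 3.76% higher and 12.1% in either direction. The median difference was -0.30 (1.23-fold lower), against -0.03 over all genes. A difference below 0 was measured for 46 of the 48 genes, against 57.5% of all genes. The other 2, Psme4 and Psmg2, did not pass the test. Both Notch1 null arrays lay below both wild-type arrays for 41 genes, which held for 35.6% of all genes.

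The count depended on single arrays, although the direction did not. Leaving out Notch1_null replicate 1 or 2 gave 9 or 5 genes, and leaving out wild_type replicate 1 or 2 gave 8 or 6. Each of these fits leaves a group with 1 array, which is assumed to vary like the others. Each also called fewer of all genes, so the fall in calls was not confined to proteasome genes. The median difference stayed between -0.36 and -0.23 over 23 settings. Quantile normalization left 8 calls, with 5.87% of all genes called in either direction. Leaving out Psmc3ip and Psme3ip1 gave 17 of 46 genes called. In a whole embryo, fewer cells of a type and less RNA per cell cannot be told apart.

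On single arrays, the median log2 ratio of the 48 genes was -0.17 and -0.31 in Notch1 null, -0.10 in Notch1 het, 0.04 and 0.004 in Dll3 null, 0.03 and 0.01 in Dll3 het, and 0.02 and 0.04 in wild type. Genes below 0 numbered 45 and 45 in Notch1 null, 35 in Notch1 het, 11 and 19 in Dll3 null, 16 and 15 in Dll3 het, and 14 and 10 in wild type. The 2 Notch1 null arrays were thus the lowest, the Notch1 het array came next, and the 6 others lay close together near 0. Both Notch1 null arrays lay below all 7 other arrays for 26 proteasome genes (54.2%), against 13.5% of all genes. They were 6 of 18 core, 16 of 21 regulatory and 4 of 9 activator or assembly genes, and 0 of the 48 genes lay above all others in Notch1 null.

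**Figure D2:**
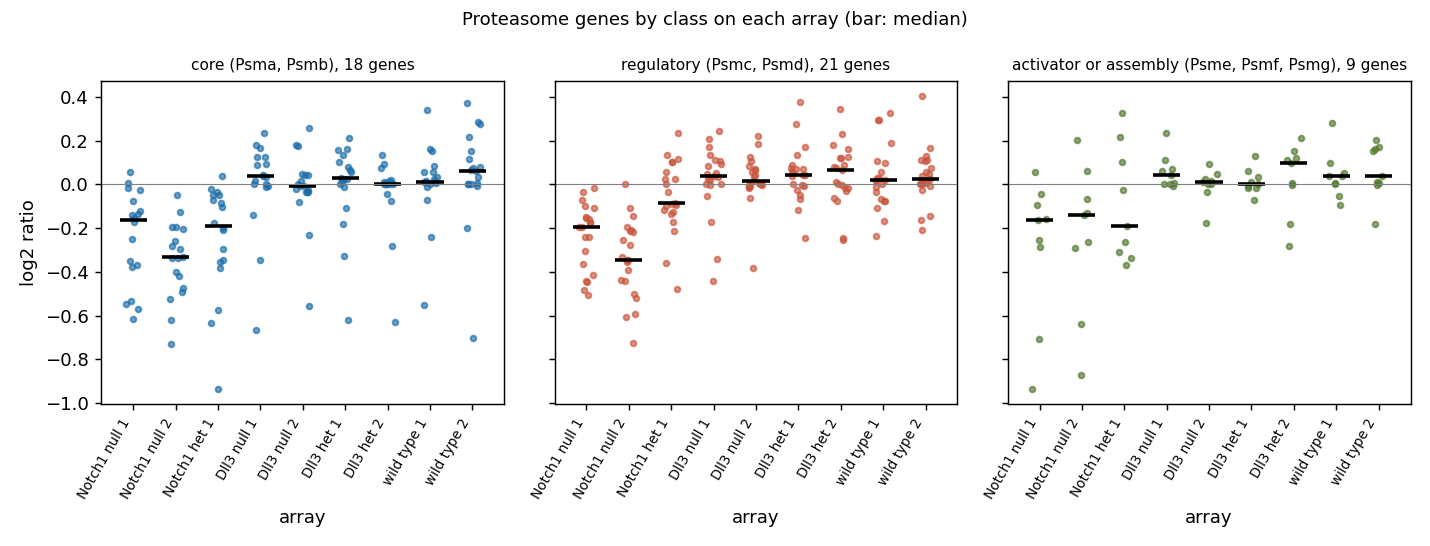
Log2 ratios of the 18 core, 21 regulatory and 9 activator or assembly genes (1 point per gene, black bar the median) on each of the 9 arrays. In core genes the Notch1 null medians are -0.16 and -0.33 and the Notch1 het median is -0.19. In regulatory genes they are -0.19 and -0.35 for Notch1 null and -0.09 for Notch1 het. The Dll3 and wild-type medians of both classes lie between -0.01 and 0.06. In activator or assembly genes the medians are -0.16 and -0.14 for Notch1 null, -0.19 for Notch1 het, the lowest, and 0.0 to 0.10 for the others.

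The promoters of 4 genes are shown because these genes stand at the ends of the range or carry a motif linked to proteasome transcription. Psmb3 and Psmb6 are core genes that fell, Psmg3 had the lowest difference of the 48 and Psme4 the highest. Each sequence is 250 bases before to 20 after the transcription start in RefSeq (GRCm38.p6), on the gene's own strand, with matches to the motifs in capitals. TGACNNNGC is the core of the site bound by Nfe2l1 and related factors, which activate proteasome genes, and CCAAT is bound by NF-Y. Both were searched on both strands.
Psmb3 (chr11:97703184-97703453, plus strand): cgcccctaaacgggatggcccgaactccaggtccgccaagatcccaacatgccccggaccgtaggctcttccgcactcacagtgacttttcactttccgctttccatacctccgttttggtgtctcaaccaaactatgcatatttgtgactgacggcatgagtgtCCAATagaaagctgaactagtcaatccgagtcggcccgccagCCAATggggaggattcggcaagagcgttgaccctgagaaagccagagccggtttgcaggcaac
Psmb6 (chr11:70525107-70525376, plus strand): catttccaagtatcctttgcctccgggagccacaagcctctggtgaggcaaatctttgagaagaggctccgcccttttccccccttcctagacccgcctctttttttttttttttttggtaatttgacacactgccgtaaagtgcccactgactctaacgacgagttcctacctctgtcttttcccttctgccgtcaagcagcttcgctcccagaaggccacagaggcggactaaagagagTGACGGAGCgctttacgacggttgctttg
Psmg3 (chr5:139826875-139827144, minus strand): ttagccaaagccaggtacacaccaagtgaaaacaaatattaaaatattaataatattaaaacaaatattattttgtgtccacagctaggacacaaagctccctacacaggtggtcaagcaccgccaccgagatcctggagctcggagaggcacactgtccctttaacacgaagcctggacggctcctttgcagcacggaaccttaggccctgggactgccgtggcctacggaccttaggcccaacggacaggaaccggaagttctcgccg
Psme4 (chr11:30771525-30771794, plus strand): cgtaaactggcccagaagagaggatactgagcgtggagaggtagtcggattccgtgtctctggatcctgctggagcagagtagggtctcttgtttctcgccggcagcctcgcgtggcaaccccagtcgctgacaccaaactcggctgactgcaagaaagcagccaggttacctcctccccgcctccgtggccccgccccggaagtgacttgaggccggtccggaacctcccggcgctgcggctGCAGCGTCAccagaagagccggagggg

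Psmb3 holds 2 matches to CCAAT, Psmb6 holds 1 match to TGACNNNGC and Psme4 holds 1 on the opposite strand, while the Psmg3 window holds neither motif. Promoter windows were found for 40 of the 48 genes. Over the longer windows of RefSeq, which reach 50 bases past the start, TGACNNNGC occurred in 6 of these 40 genes (15%), against 14% of 27025 genes. CCAAT occurred in 15 of 40 (37.5%), against 41.1% of those genes. Genes that fell in Notch1 null held TGACNNNGC in 2 of 14 and CCAAT in 5 of 14, and genes that did not pass the test in 4 of 26 and 10 of 26. These matches describe the letters of the windows only.

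Among the core genes, 7 of 18 fell in Notch1 null, all of them beta subunits, and all 18 had a difference below 0, with a median of -0.29. Of the beta genes 7 of 10 fell, with a median of -0.45. Of the alpha genes 0 of 8 passed the test, with a median of -0.17. An unadjusted p under 0.05 was found by limma for 2 of the 8, and for 3208 of all 12393 genes. This division within the core was made with the values known, and the difference between alpha and beta genes was not tested. Leaving out Notch1_null replicate 1 or 2 gave 3 or 2 core genes, and leaving out wild_type replicate 1 or 2 gave 3 or 2.

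The 3 constitutive catalytic subunits all fell. Psmb6, which carries the caspase-like site, stood at -0.57 and -0.53 in Notch1 null, -0.20 in Notch1 het, 0.04 and -0.02 in Dll3 null, 0.02 and 0.003 in Dll3 het, and 0.00 and 0.15 in wild type. It was 1.54-fold lower in Notch1 null than in wild type (log2 -0.62 ± 0.09 SE, adjusted p = 0.00422). Both Notch1 null arrays lay apart from all others, with the Notch1 het array between them and the rest. Psmb5, which carries the chymotrypsin-like site and is the main target of proteasome inhibitors, stood at -0.53 and -0.40 in Notch1 null and 0.06 and 0.00 in wild type (log2 -0.50 ± 0.10, adjusted p = 0.0155). Psmb7, with the trypsin-like site, stood at -0.35 and -0.34 in Notch1 null and 0.01 and 0.00 in wild type, and fell by 0.35 on the log2 scale (± 0.09, adjusted p = 0.0375). The arrays did not overlap for either gene, but the Psmb5 and Psmb7 calls were lost when any 1 of the 4 arrays compared was left out.

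The inducible catalytic subunits replace these 3 in the immunoproteasome, which processes antigens, and interferon raises them. Psmb10 stood at -0.38 and -0.49 in Notch1 null, -0.30 in the Notch1 het array and 0.06 and 0.27 in wild type, and was 1.52-fold lower in Notch1 null (log2 -0.60 ± 0.11, adjusted p = 0.00885). Psmb8 stood at -0.07 and -0.30 in Notch1 null, against 0.16 and 0.29 in wild type (log2 -0.41 ± 0.11, adjusted p = 0.0422). Its call was kept under only 8 of 21 alternatives, and the wild-type arrays were the highest of all 9. Psmb9 differed by -0.07 (95% interval -0.27 to 0.13) and did not pass the test. Of 19 other genes of the interferon response and antigen presentation, 0 were called by limma, and the median difference was 0.01. An unadjusted p under 0.05 was found for 2 of them, and for 3208 of all 12393 genes.

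The remaining beta genes form the structure of the rings. Psmb3 had the largest difference of the core genes and stood at -0.37 and -0.62 in Notch1 null, -0.58 in Notch1 het, 0.03 and -0.04 in Dll3 null, 0.08 and 0.00 in Dll3 het, and 0.15 and 0.37 in wild type. It was 1.69-fold lower in Notch1 null than in wild type (log2 -0.76 ± 0.12, adjusted p = 0.00467), and both of its probe sets were called, at -0.89 and -0.63. The 3 Notch1-allele arrays were the lowest and the wild-type arrays the highest. Psmb2 stood at -0.55 and -0.34 in Notch1 null, -0.94 in the Notch1 het array and 0.09 and 0.03 in wild type (log2 -0.50 ± 0.13 for Notch1 null against wild type, adjusted p = 0.0347). Its lowest array was thus the heterozygote. Psmb1 differed by -0.25 and Psmb4 by -0.21, and neither passed the test.

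The alpha genes ranged from -0.34 for Psma3 to -0.05 for Psma1. Psma3 came nearest to the threshold (adjusted p = 0.0504), with 0.01 and -0.13 in Notch1 null against 0.34 and 0.22 in wild type. Its wild-type arrays were the highest of the 9 and its Notch1 null arrays overlapped the Dll3 ones. Psma1 differed by -0.05 (95% interval -0.27 to 0.18), Psma2 by -0.11, Psma5 by -0.10, Psma6 by -0.14 and Psma4 by -0.20. Psma7 differed by -0.29 and so did Psma8, a subunit known from testis. All 8 gate-forming subunits therefore lay below 0, and none passed the test after adjustment over all genes. The 95% intervals of Psma3 (-0.555 to -0.121) and Psma7 (-0.527 to -0.052) did not include 0. These are the 2 alpha genes with an unadjusted p under 0.05.

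In the regulatory particle 8 of 21 genes fell, 0 rose, and all 21 had a difference below 0, with a median of -0.33. The ATPases made up most of the calls, with 5 of 6 called and a median of -0.44, while 2 of 14 Psmd genes were called, with a median of -0.27. This division too was made with the values known and its difference was not tested. With Notch1_null replicate 1 or 2 left out 3 or 1 regulatory genes were called, and with wild_type replicate 1 or 2 left out 2 or 1.

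Psmc4, an ATPase of the ring that unfolds substrates, stood at -0.31 and -0.44 in Notch1 null, -0.10 in Notch1 het, 0.21 and 0.18 in Dll3 null, -0.02 and -0.06 in Dll3 het, and 0.30 and 0.41 in wild type. It was 1.65-fold lower in Notch1 null than in wild type (log2 -0.72 ± 0.09, adjusted p = 0.00246), and both of its probe sets were called. Its Notch1 null arrays were the lowest of the 9 and its wild-type arrays the highest. Psmc3, another ATPase, stood at -0.45 and -0.61 in Notch1 null, against -0.17 and 0.17 in wild type (log2 -0.53 ± 0.12, adjusted p = 0.0219). Psmc5 stood at -0.41 and -0.50 in Notch1 null, 0.14 in Notch1 het, and 0.00 and -0.01 in wild type (log2 -0.45 ± 0.10, adjusted p = 0.0179). In both genes the Notch1 null arrays were the lowest of the 9, and in Psmc5 the heterozygote stood above 0.

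Psmc2 differed by -0.43 (adjusted p = 0.0268) and Psmc1 by -0.33 (adjusted p = 0.0400). The Psmc1 call was kept under 7 of 21 alternatives, and its 2 probe sets lay apart, at -0.57 and -0.08. Psmc6, the remaining ATPase, differed by -0.28 (95% interval -0.54 to -0.01) and did not pass the test (adjusted p = 0.178). All 6 ATPases lay below both wild-type arrays in both Notch1 null arrays. Psmc3ip, named for binding an ATPase but not a subunit, stood at -0.37 and -0.52 in Notch1 null and 0.02 and 0.00 in wild type (log2 -0.45 ± 0.12, adjusted p = 0.0325).

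Psmd13, a subunit of the lid, stood at -0.44 and -0.73 in Notch1 null, -0.14 in Notch1 het, 0.13 and -0.02 in Dll3 null, 0.04 and 0.12 in Dll3 het, and -0.11 and 0.02 in wild type. It was 1.46-fold lower in Notch1 null than in wild type (log2 -0.54 ± 0.12, adjusted p = 0.0172). Psmd3, also of the lid, stood at -0.48 and -0.35 in Notch1 null and 0.03 and 0.08 in wild type (log2 -0.47 ± 0.10, adjusted p = 0.0171). For both genes the Notch1 null arrays were the lowest of the 9, and each call was lost when 1 of several arrays was left out, in 3 and 4 of the 9 cases. Among lid genes outside the threshold, Psmd6 differed by -0.43 (adjusted p = 0.0515), Psmd8 by -0.34 (adjusted p = 0.0563) and Psmd7 by -0.34.

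The subunits that handle ubiquitin did not pass the test. Psmd14, the deubiquitinase of the lid, differed by -0.31 (95% interval -0.51 to -0.11, adjusted p = 0.0546), with both Notch1 null arrays below all others. Psmd4, a ubiquitin receptor, differed by -0.20, and Psmd2, a scaffold that also binds ubiquitin-like domains, by -0.08. Psmd1, the other large scaffold, differed by -0.04 (95% interval -0.35 to 0.26), Psmd12 by -0.11 and Psmd11 by -0.20. The 6 probe sets of Psmd11 ranged from -0.80 to 0.06, so the mean of this gene joins probe sets that do not move alike. The chaperones that assemble the ATPase ring differed by -0.30 for Psmd5, by -0.24 for Psmd9 and by -0.04 for Psmd10, and none passed the test.

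**Figure D3:**
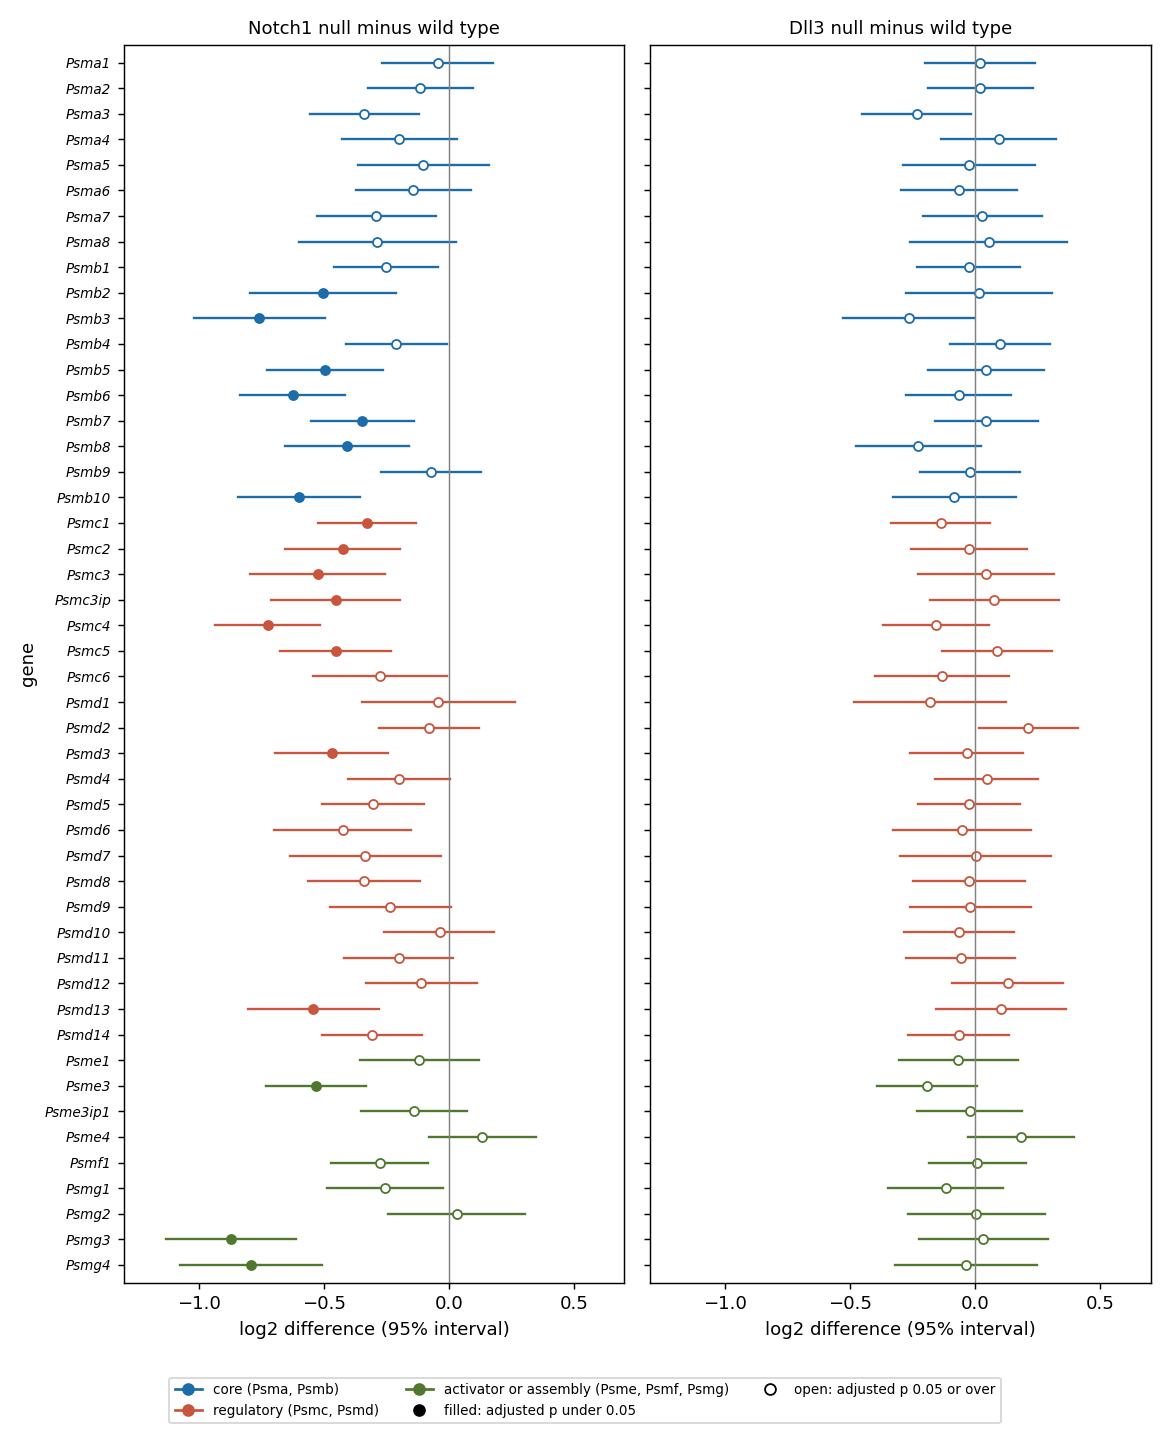
Log2 difference of each of the 48 genes (point) with its 95% interval (line), in Notch1 null minus wild type on the left and Dll3 null minus wild type on the right, which share the wild-type arrays; filled points have an adjusted p under 0.05 and colours mark the 3 classes. On the left 18 points are filled, all below 0, and the points run from -0.87 for Psmg3 to 0.13 for Psme4; on the right no point is filled and they run from -0.27 to 0.21.

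Assembly chaperones of the core gave the largest differences of all. Psmg3 stood at -0.71 and -0.87 in Notch1 null, -0.31 in Notch1 het, 0.23 and 0.00 in Dll3 null, -0.01 and 0.12 in Dll3 het, and 0.01 and 0.16 in wild type. It was 1.83-fold lower in Notch1 null than in wild type (log2 -0.87 ± 0.12, adjusted p = 0.00270). Psmg4, which pairs with the Psmg3 product to help build the alpha ring, stood at -0.94 and -0.64 in Notch1 null, -0.34 in Notch1 het, 0.11 and -0.18 in Dll3 null, 0.13 and 0.11 in Dll3 het, and 0.00 and 0.01 in wild type. It was 1.73-fold lower in Notch1 null (log2 -0.79 ± 0.13, adjusted p = 0.00530). In both genes the Notch1 null arrays were the lowest of the 9 and the Notch1 het array the next. The partner pair of the same pathway did not pass the test: Psmg1 differed by -0.26 (adjusted p = 0.148) and Psmg2 by 0.03 (adjusted p = 0.924).

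Of the activators, Psme3, which encodes a nuclear activator that works without ATP, stood at -0.29 and -0.29 in Notch1 null, 0.33 in Notch1 het, 0.07 and 0.03 in Dll3 null, 0.01 and 0.10 in Dll3 het, and 0.28 and 0.20 in wild type. It was 1.45-fold lower in Notch1 null than in wild type (log2 -0.53 ± 0.09, adjusted p = 0.00649), a call lost without Notch1_null replicate 2. Its 3 probe sets ranged from -1.05 to 0.03 and 2 of them were called. Psme1, a subunit of the interferon-inducible activator, differed by -0.12, and Psmf1, an inhibitor of the core, by -0.28 (adjusted p = 0.0678). Psme4, a nuclear activator linked to histone degradation, stood at 0.06 and -0.07 in Notch1 null, against -0.10 and -0.18 in wild type (log2 0.13, 95% interval -0.08 to 0.35, adjusted p = 0.435). It was the only gene of the 48 with both Notch1 null arrays above both wild-type arrays. Psme3ip1 differed by -0.14 and did not pass the test.

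The 5 genes Psmb3, Psmb6, Psmc4, Psmg3 and Psmg4 kept their call under all 21 alternatives tried, the removal of each array included. Psme3 kept it under 20, Psmb10 under 19 and Psmd13 under 18, while the other 10 kept it under 7 to 16. Psmb2, Psmb5, Psmb7, Psmc3ip, Psmc5 and Psmd3 lost it when any 1 of the 4 arrays compared was left out. Psmc2 and Psmd13 lost it without Notch1_null replicate 2 or either wild-type array, Psmc3 without either Notch1 null array or wild_type replicate 2, and Psmb10 without replicate 2 of either group. Psmb8 and Psmc1 lost it without any of these 4 arrays and also without either Dll3 null array, and Psmc1 without either Dll3 het array too. The adjusted p of these 12 genes and of Psme3 reached at most 0.262 over the alternatives. Among the 21 alternatives, leaving out the single Notch1 het array could not change this comparison. The fit of only the arrays compared and that of the wild-type and Notch1 arrays are the same here, yet count separately. Read by probe set, 76 of 85 were lower in Notch1 null and 21 were called lower, with 0 called higher. Of all 22626 probe sets, 9.45% were called in either direction. Of the 21 genes with several probe sets, 14 had all of them lower.

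Notch1 het was compared with wild type and with Notch1 null to place the single heterozygous array. Against wild type 2 genes fell, 0 rose and 46 did not pass, with 1.53% of all genes called lower and 0.718% higher. Both were structural beta genes, Psmb2 (log2 -0.99 ± 0.16, adjusted p = 0.0194) and Psmb3 (log2 -0.84 ± 0.14, adjusted p = 0.0244). The median over the 48 genes was -0.14, and 39 of them lay below 0, against 49.6% of all genes. All 18 core genes lay below wild type, as did 15 of 21 regulatory and 6 of 9 activator or assembly genes. Both calls depended on each of the wild-type arrays, so each rests on single arrays. With embryo sex, inferred from Xist and a Y-linked gene, as a covariate neither was made, and 0.0323% of all genes were called. By that pattern the Notch1 het array was female and both wild-type arrays male, so genotype and inferred sex are aligned in this comparison.

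Outside these calls the lowest regulatory difference of Notch1 het against wild type was that of Psmc4 (-0.45) and the highest that of Psmd1 (0.27). Among activator and assembly genes they were Psme1 (-0.44) and Psme4 (0.35), and the highest core difference was that of Psma1 (-0.01). Notch1 null against Notch1 het gave 2 genes lower and 0 higher, with 1.32% of all genes called lower and 1.13% higher. These were Psmc5 (log2 -0.59 ± 0.12, adjusted p = 0.0388) and Psme3 (log2 -0.62 ± 0.11, adjusted p = 0.0237), both of which stood above 0 in the heterozygote. Below 0 lay 37 of the 48 genes, against 58.5% of all genes, with a median of -0.16. Leaving out either Notch1_null array gave 0 genes, as did a fit without the Dll3 arrays. Psmc5 alone was lost when either wild-type or either Dll3 het array was left out. The other extremes were Psmb5 (-0.40) and Psmb2 (0.49) in the core, Psmd10 (0.31) in the regulatory particle and Psme1 (0.32) among activators.

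For 28 of the 48 genes (58.3%) the heterozygote lay between the Notch1 null and the wild-type mean with Notch1 null lower, against 21.1% of all genes. These were 12 of 18 core, 14 of 21 regulatory and 2 of 9 activator or assembly genes. It lay below the Notch1 null mean for 11 genes, 6 of them core, and above the wild-type mean for 9, none of them core. With 1 array, the spread of the heterozygote could not be measured.

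Neither Dll3 genotype moved these genes past the threshold. Dll3 null against wild type gave 0 of 48 genes called by limma, and 0.00807% of all genes were called. An unadjusted p under 0.05 was found for 3 of the 48, and for 1157 of all 12393 genes. The median was -0.02 and 27 genes lay below 0, against 49.3% of all genes. In the core the differences ran from -0.27 for Psmb3 (95% interval -0.53 to -0.005) to 0.10 for Psmb4. In the regulatory particle they ran from -0.18 for Psmd1 to 0.21 for Psmd2, and among activator and assembly genes from -0.19 for Psme3 to 0.18 for Psme4.

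Dll3 het against wild type also gave 0 genes called and a median of -0.001, with 0.113% of all genes called. Of the 48 genes 6 had an unadjusted p under 0.05, as had 1800 of all 12393 genes. Its ends were Psmb8 (-0.31) and Psma8 (0.15) in the core, Psmc4 (-0.39) and Psmd10 (0.38) in the regulatory particle, and Psmg2 (-0.23) and Psme4 (0.17) among the others. Dll3 null against Dll3 het gave 0 genes called and a median of 0.004, with 0% of all genes called. Here 3 of the 48 genes had an unadjusted p under 0.05, as had 654 of all 12393 genes. Its ends were Psma8 (-0.09) and Psmb4 (0.14), Psmd10 (-0.44) and Psmc4 (0.24), and Psmg4 (-0.15) and Psmg2 (0.23). Differences of the size seen in Psmg3 lay outside the 95% intervals for that gene in Dll3 null, which ran from -0.23 to 0.29. Both Dll3 comparisons with wild type share the wild-type arrays with the Notch1 ones.

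The nulls were also set directly against each other. The difference is between these 4 arrays, but the spread behind its test is estimated over every genotype with 2 arrays. In Notch1 null against Dll3 null 16 genes were lower, 0 higher and 32 did not pass, with 4.87% of all genes called lower and 2.92% higher. The median was -0.29, 45 genes lay below 0, against 60.7% of all genes, and both Notch1 null arrays lay below both Dll3 null arrays for 38 genes, against 36.9% of all genes. Calls fell on 6 core, 7 regulatory and 3 activator or assembly genes. The lowest were Psmg3 (log2 -0.91), Psmg4 (-0.76), Psmd13 (-0.64), Psmc3 (-0.57), Psmc4 (-0.57) and Psmb6 (-0.56). The highest, none of them called, were Psmd1 (0.14), Psmg2 (0.03) and, in the core, Psmb9 (-0.05). Leaving out Notch1_null replicate 1 or 2 gave 6 or 1 genes, and leaving out Dll3_null replicate 1 or 2 gave 1 or 10. Leaving out either wild-type array gave 11, and a fit of only the 4 arrays compared gave 2.

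A test of any difference among the 5 genotypes called 14 of 48 genes, against 9.21% of all genes. They were Psmb2, Psmb3, Psmb5, Psmb6, Psmb10, Psmc3, Psmc4, Psmc5, Psmd3, Psmd10, Psmd13, Psme3, Psmg3 and Psmg4. Psmd10, an ATPase-ring chaperone also known as gankyrin and the only X-linked gene among them, was called in no single comparison (adjusted p = 0.0276 over the genotypes). It stood at -0.11 and 0.00 in Notch1 null, -0.36 in Notch1 het, -0.17 and 0.01 in Dll3 null, 0.38 and 0.35 in Dll3 het, and -0.04 and 0.01 in wild type. Both Dll3 het arrays were thus the highest and the Notch1 het array the lowest, and the call was kept under 10 of 18 alternatives, with adjusted p up to 0.0926. The count of 14 became 4 or 0 with Notch1_null replicate 1 or 2 left out, 9 or 7 with wild_type replicate 1 or 2 left out, and 8 with either Dll3_het array left out.

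Other gene lists were read beside the proteasome in Notch1 null against wild type, by counts and medians only. The COP9 signalosome, a complex related to the lid that removes Nedd8 from ubiquitin ligases, had 5 of 10 genes lower (Gps1, Cops3, Cops4, Cops8 and Cops9) and a median of -0.35. Gps1 had the lowest value, at -0.60 (adjusted p = 0.00952). The translation factor eIF3, which shares its fold with both, had 0 of 11 called and a median of -0.05. In it 1 gene had an unadjusted p under 0.05, against 3208 of all 12393 genes. The CCT chaperonin had 1 of 8 lower (Cct3) and a median of -0.12. Proteasome regulators and cofactors had 2 of 21 lower and a median of -0.06. The 2 were Ufd1, a cofactor of the Vcp unfoldase (log2 -0.53, adjusted p = 0.00885), and Sem1, a small lid subunit outside the Psm names (log2 -0.51, adjusted p = 0.00950). Nfe2l1, the activator of proteasome genes, differed by 0.07 and the assembly factor Pomp by -0.34 (adjusted p = 0.0543).

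Of 7 measured genes for ubiquitin-like proteins and their activating enzymes 1 was lower, Nedd8 (log2 -0.48, adjusted p = 0.00885). Cytosolic ribosomal proteins had 2 of 47 genes lower and a median of -0.10. Mitochondrial ribosomal proteins had 38 of 71 lower and a median of -0.39, and oxidative phosphorylation had 23 of 78 lower, 1 higher and a median of -0.22. Lower calls above the share over all genes were thus not confined to the proteasome, and no difference between lists was tested.

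**Figure D4:**
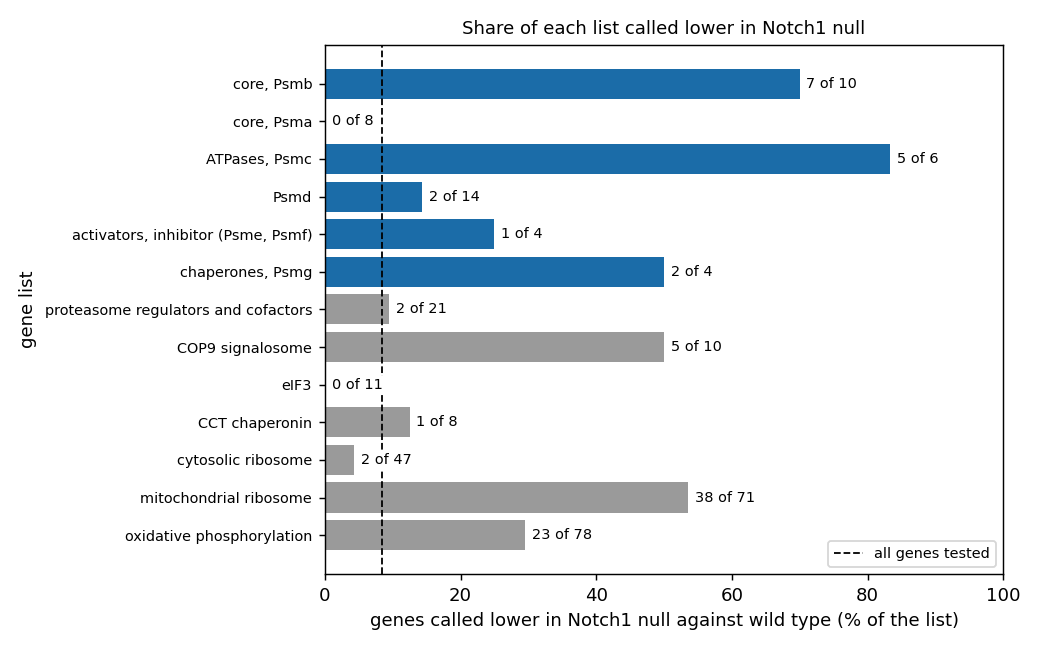
Share of each gene list called lower in Notch1 null against wild type (bars, from 0, with counts beside them); blue bars are proteasome families and grey bars other lists, and the dashed line is the 8.35% of all genes called lower. The Psmc ATPases (5 of 6) and Psmb genes (7 of 10) have the longest bars, with mitochondrial ribosome (38 of 71) and COP9 signalosome (5 of 10) beside them, and Psma and eIF3 have none.

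Measures of other cells and of the RNA were read on the same arrays. Macrophage and blood markers had 0 of 14 genes called and medians of 0.02 and -0.11 in Notch1 null, against -0.11 and 0.003 in wild type. Primitive erythroid markers had 0 of 9 called and medians of -0.001 and 0.01 in Notch1 null, against 0.00 and 0.01 in wild type. Visceral endoderm markers had 0 of 13 called and medians of 0.15 and -0.42 in Notch1 null, against -0.20 and 0.80 in wild type. Their ranges overlapped in each of the 3 lists. An unadjusted p under 0.05 was found for 1, 0 and 2 genes, against 3208 of all 12393 genes.

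The Gapdh 3′ minus 5′ difference, a measure of RNA quality, was -0.001 and 0.04 in Notch1 null, against 0.08 and 0.16 in wild type. Both Notch1 null arrays thus lay below both wild-type arrays for Gapdh. Taken from ratios, such differences compare arrays and do not show the absolute quality of the RNA. The Gapdh difference was 0.07 and 0.04 in Dll3 het and -0.06 and -0.10 in Dll3 null. The same difference for actin was 0.02 and 0.04 in Notch1 null and 0.005 and 0.07 in wild type, which overlapped. The spike-in control dap had mean ratios of 5.41 and 2.68 in Notch1 null, 1.0 in Notch1 het, 0.382 and 0.403 in Dll3 null, 0.395 and 0.421 in Dll3 het, and 7.07 and 9.91 in wild type. It thus parted the Dll3 arrays from the others and Notch1 null from wild type. Xist minus a Y-linked gene was above 0 in 4 arrays, replicate 1 of each mutant group, taken as a female pattern. The other 5 were taken as male. Because most probe sets are scaled to a median ratio of 1, a cut at 0 tends to part the arrays near their middle. The sex of the embryos is therefore not established by this pattern. The part of RNA quality and spike-in level in the results was not tested. With embryo sex as a covariate 14 proteasome genes were lower in Notch1 null than in wild type, with 9.63% of all genes called in either direction. With the Dll3 arrays left out of the fit 14 were lower, with 10.4% of all genes called.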

How the data were processed

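Total RNA of whole embryos was labelled as biotin cRNA and hybridised to Affymetrix arrays, per the labels. The authors deposited linear ratios after RMA (background correction, normalization and probe summary), per the submitters' processing notes; the version, the divisor of the ratios and the genome build are not given in the sources used here. Of 22690 probe sets, 19847 (87.5%) have a median ratio of exactly 1 and 0 a median above 1.

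The log2 of each deposited ratio was taken, with no pseudocount and no filter on low values. After 64 control probe sets were set aside, 20380 probe sets with 1 symbol in the platform annotation were averaged to 12393 genes; 691 with several symbols and 1555 with none were not used for genes. RefSeq (GRCm38.p6) changed 0 symbols of proteasome genes.

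Groups were taken from the labels. Group means were compared in R 4.3.3 with limma 3.58.1 (lmFit, contrasts.fit, eBayes; 1 mean per genotype over 9 arrays; 4 residual and 5.64 prior degrees of freedom), with Benjamini-Hochberg adjustment over all genes in each comparison and a moderated F-test over the 5 groups. Errors are standard errors. The single Notch1 het array is assumed to vary like the others. The number of arrays limits the precision of every value. The procedure was tested on simulated data. Named are all genes called in any comparison, the extremes of each class in each comparison, and the catalytic, ATPase, ubiquitin-handling, chaperone, activator and inhibitor genes. Members and lists were chosen with earlier results of these data known. Alternatives were other scalings, probe set summaries, filters, variance models, sample sets, covariates, thresholds and leaving out each array.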

Additional observations from a re-analysis of the deposited data

Results flagged for a closer look

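The Notch1 null and Dll3 null arrays differed from each other, by a direct limma test of that difference, in 16 proteasome genes, all lower in Notch1 null. In the core these were Psmb2 (log2 -0.52), Psmb3 (-0.49), Psmb5 (-0.54), Psmb6 (-0.56), Psmb7 (-0.39) and Psmb10 (-0.52). In the regulatory particle they were Psmc2 (-0.40), Psmc3 (-0.57), Psmc4 (-0.57), Psmc5 (-0.54), Psmd3 (-0.43) and Psmd13 (-0.64), with Psmc3ip (-0.53). Among activators and assembly factors they were Psme3 (-0.34), Psmg3 (-0.91) and Psmg4 (-0.76). The spike-in control dap was higher in both Notch1 null arrays (5.41 and 2.68) than in both Dll3 null arrays (0.382 and 0.403), and its part in these differences was not tested. No group had enough arrays for a test of single outlying arrays.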

How the results depend on the processing

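No called gene changed sign under any alternative, and counts not given here stayed within 1.5 times. For Notch1 null against wild type, 18 genes became 8 with quantile normalization and 7 at an adjusted p under 0.01, and 5 to 18 with 1 array left out. For Notch1 het against wild type, 2 became 1 with quantile normalization or with only wild-type and Notch1 arrays, 5 with the probe set of largest SD or without averaging (1 of them higher in Notch1 het), 0 with only the arrays of both groups, with embryo sex or at 0.01, and 0 to 2 with 1 array left out. For Notch1 null against Notch1 het, 2 became 0 with quantile normalization, only the arrays of both groups, only wild-type and Notch1 arrays, replicate block, embryo sex or 0.01, 1 with the probe set of largest SD or without averaging, and 0 to 2 with 1 array left out. For Notch1 null against Dll3 null, 16 became 6 with quantile normalization, 10 with the probe set of largest SD, 2 with only the arrays of both groups and 4 at 0.01, and 1 to 16 with 1 array left out. Dll3 het against wild type gained 1 call with the probe set of largest SD or without averaging. The test over 5 genotypes gave 5 of 14 with quantile normalization, 1 at 0.01 and 0 to 13 with 1 array left out; it was not run without the Notch1 het array, which leaves 4 groups. Of all genes, 5.87% were called for Notch1 null against wild type with quantile normalization and 3.74% at 0.01. Against Dll3 null the shares were 3.6% and 1.69%, with 7.32% for the probe set of largest SD and 1.47% for only both groups. Quantile normalization gave 0.694% for Notch1 het against wild type, 0.444% for Notch1 null against Notch1 het and 3.28% over 5 genotypes. In the Notch1 comparisons, leaving out an array compared also lowered the calls over all genes. Causes were not tested.

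With the replicate number as a block, 16 genes were lower in Notch1 null than in wild type and 15 lower than in Dll3 null. The test over genotypes was passed by 10. Of all genes, 10.7%, 6.93% and 6.54% were called in these tests, in that order. Over all genes, differences between replicates 1 and 2 correlated between groups at -0.121 to 0.175, which gives little sign that the numbers pair the arrays. A pairing that affects few genes could not be seen in this way. The 1 or 2 arrays per group limit every call.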
